A study of Mus musculus with 10 samples.

Results

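Hyaluronan is a long sugar chain of the matrix between cells, and the genes that make it, break it down and bind it were followed here as a group of 9 among the 55486 genes in the count table: Has1, Has2, Has3, Hyal1, Hyal2, Cemip, Cd44, Vcan and Tnfaip6. They were taken by gene symbol, and each matched 1 row. The libraries came from mouse cells grown for 7 days in collagen and basement membrane extract. Normal fibroblasts (NFs) of the mTmG reporter genotype came from mammary glands of 8-week-old animals and were sorted into a CD26- and a CD26+ subset, CD26 being the surface protein that Dpp4 encodes. The tumor cells were 2 lines of the WapCre;Cdh1F/F;PtenF/F genotype, 13-MCB-17 and 10-SJK-221, from a model of invasive lobular carcinoma in which the Wap promoter drives Cre in mammary epithelium. Gel 1 held both NF subsets without tumor cells and gave 1 library of each subset. Gels 2 and 3 held tumor cells alone, of 13-MCB-17 and 10-SJK-221 respectively, and gave 1 library each. Gels 4 and 5 held both NF subsets with 13-MCB-17 and with 10-SJK-221, and each gave 3 libraries: CD26- NFs, CD26+ NFs and tumor cells. In all there were 10 libraries in 6 groups of 1 or 2.

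The design limits what the groups can stand for. Each tumor line is a single line, and the NFs of a sort could be pooled from several mice. A Cre-carrying adenovirus was given to CD26+ NFs only, so subset and virus cannot be told apart. The sample titles mark CD26- libraries as Tom+ and CD26+ libraries as GFP+, the colors of the reporter before and after Cre. The subsets in the libraries thus rest on color, and CD26+ cells that Cre had not reached would count as CD26-. The NFs had been in culture before the gels were made. A comparison of co-cultured NFs with NFs alone sets 2 gels against 1, so co-culture and the gel itself cannot be told apart, and neither can the gel and the line beside the NFs. Nothing in the labels says that libraries of 1 group came from separate animals. Where a group has more than 1 library, these also differ in gel and in tumor line. The p-values thus measure a spread that mixes gel, line and technical differences and cannot be read as one between animals. In the tumor fits, which hold line as a term, it is how far the lines differ in their response to culture.

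The hyaluronan synthases Has1, Has2 and Has3 sit in the plasma membrane and push the growing chain out of the cell. Hyal1 and Hyal2 are hyaluronidases that cut the chain in lysosomes and at the cell surface, Cemip is needed for its breakdown by fibroblasts, and Cd44 is its main cell surface receptor. Vcan encodes versican, a large proteoglycan that binds the chain, and Tnfaip6 encodes TSG-6, which passes the heavy chains of inter-alpha-inhibitor to it. Fibroblasts are a main source of hyaluronan in connective tissue, and hyaluronan-rich stroma is well known in breast tumors.

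Of these genes, 5 fell in NFs beside tumor cells, and the sequences just before the starts of those with a RefSeq promoter entry are printed so that the letters shared by genes that moved together can be seen. RefSeq promoters of build GRCm38.p6 held 7 of the 9 genes. Has2 and Has3 were not among them. The printed stretch of Has1 is chr17:17855206-17855438 on the minus strand, that of Cemip chr7:84086506-84086755 on the minus strand, that of Vcan chr13:89742513-89742762 on the minus strand and that of Tnfaip6 chr2:52037863-52038008 on the plus strand. Each is read 5′ to 3′ toward the gene, and bases downstream of the GENCODE gene start were left out (17 for Has1 and 104 for Tnfaip6). Capitals mark matches on either strand, and overlapping matches run together. The letters searched were TATAAA for the TATA box, GGGCGG for the GC box and TGANTCA for the binding site of AP-1. For NF-kB they were GGGNNNNNCC, and for STAT factors they were TTCNNNGAA.
Has1: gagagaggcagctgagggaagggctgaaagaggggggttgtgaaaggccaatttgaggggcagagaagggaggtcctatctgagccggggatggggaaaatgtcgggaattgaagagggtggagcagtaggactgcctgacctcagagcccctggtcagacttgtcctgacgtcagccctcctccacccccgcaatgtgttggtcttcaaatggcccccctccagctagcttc
Cemip: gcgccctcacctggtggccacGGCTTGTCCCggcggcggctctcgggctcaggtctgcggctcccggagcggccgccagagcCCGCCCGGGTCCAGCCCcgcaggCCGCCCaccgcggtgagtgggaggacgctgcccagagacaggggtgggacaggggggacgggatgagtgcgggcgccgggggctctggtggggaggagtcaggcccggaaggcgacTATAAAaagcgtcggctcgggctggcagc
Vcan: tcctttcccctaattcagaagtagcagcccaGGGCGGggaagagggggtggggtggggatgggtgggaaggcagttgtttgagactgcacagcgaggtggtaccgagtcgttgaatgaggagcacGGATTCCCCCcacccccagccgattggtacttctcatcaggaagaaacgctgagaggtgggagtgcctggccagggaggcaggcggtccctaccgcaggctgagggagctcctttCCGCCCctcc
Tnfaip6: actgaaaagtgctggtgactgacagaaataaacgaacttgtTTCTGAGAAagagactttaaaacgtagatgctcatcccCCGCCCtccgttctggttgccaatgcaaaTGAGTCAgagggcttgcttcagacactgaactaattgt
The Tnfaip6 stretch held 1 TGANTCA and 1 TTCNNNGAA match, which occur in 6.73% and 7.04% of the 32536 RefSeq promoter windows of 250 bases. None of the other printed stretches held either. Cemip held a TATAAA match 29 to 24 bases before its start, and 12.3% of windows hold 1 anywhere. GGGCGG (33.0% of windows) stood in Cemip, Vcan and Tnfaip6, and GGGNNNNNCC (46.0%) in Cemip and Vcan. The Has1 stretch held no match to any of the 5 motifs. No motif was common to all 4 stretches, and a match is only a description of letters.

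The libraries held between 14142334 and 18408940 counts. Values are CPM (counts of a gene scaled to 1000000 counts of its library), and an observed 0 allows up to 3 counts, or 0.163 to 0.212 CPM, for counting error only. All 8 fibroblast markers were above that floor in all 6 NF libraries, and their summed level was 69497 and 74846 CPM without tumor cells and between 23317 and 41536 CPM with them. Of 8 epithelial markers, 7 were at 0 counts in each library of NFs alone, while the sum lay between 57.6 and 182 CPM in co-cultured NFs and between 2967 and 3817 CPM in tumor cells. Scaled to the tumor cells of the same gel, tumor RNA thus made up 1.94% and 2.17% of the CD26- libraries and 3.05% and 4.92% of the CD26+ libraries of gels 4 and 5. By the same measure on fibroblast markers, NF RNA made up 0.578% and 0.301% of the co-cultured tumor libraries, an estimate that also counts what the tumor cells themselves have of those markers. Dpp4 was at 0.281, 0.771 and 0.283 CPM in the CD26+ libraries of gels 1, 4 and 5 and at or below 0.0575 CPM in the CD26- libraries, so its RNA was scarce in both subsets. In bulk RNA, fewer cells of a type and less RNA per cell cannot be told apart.

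**Figure D1:**
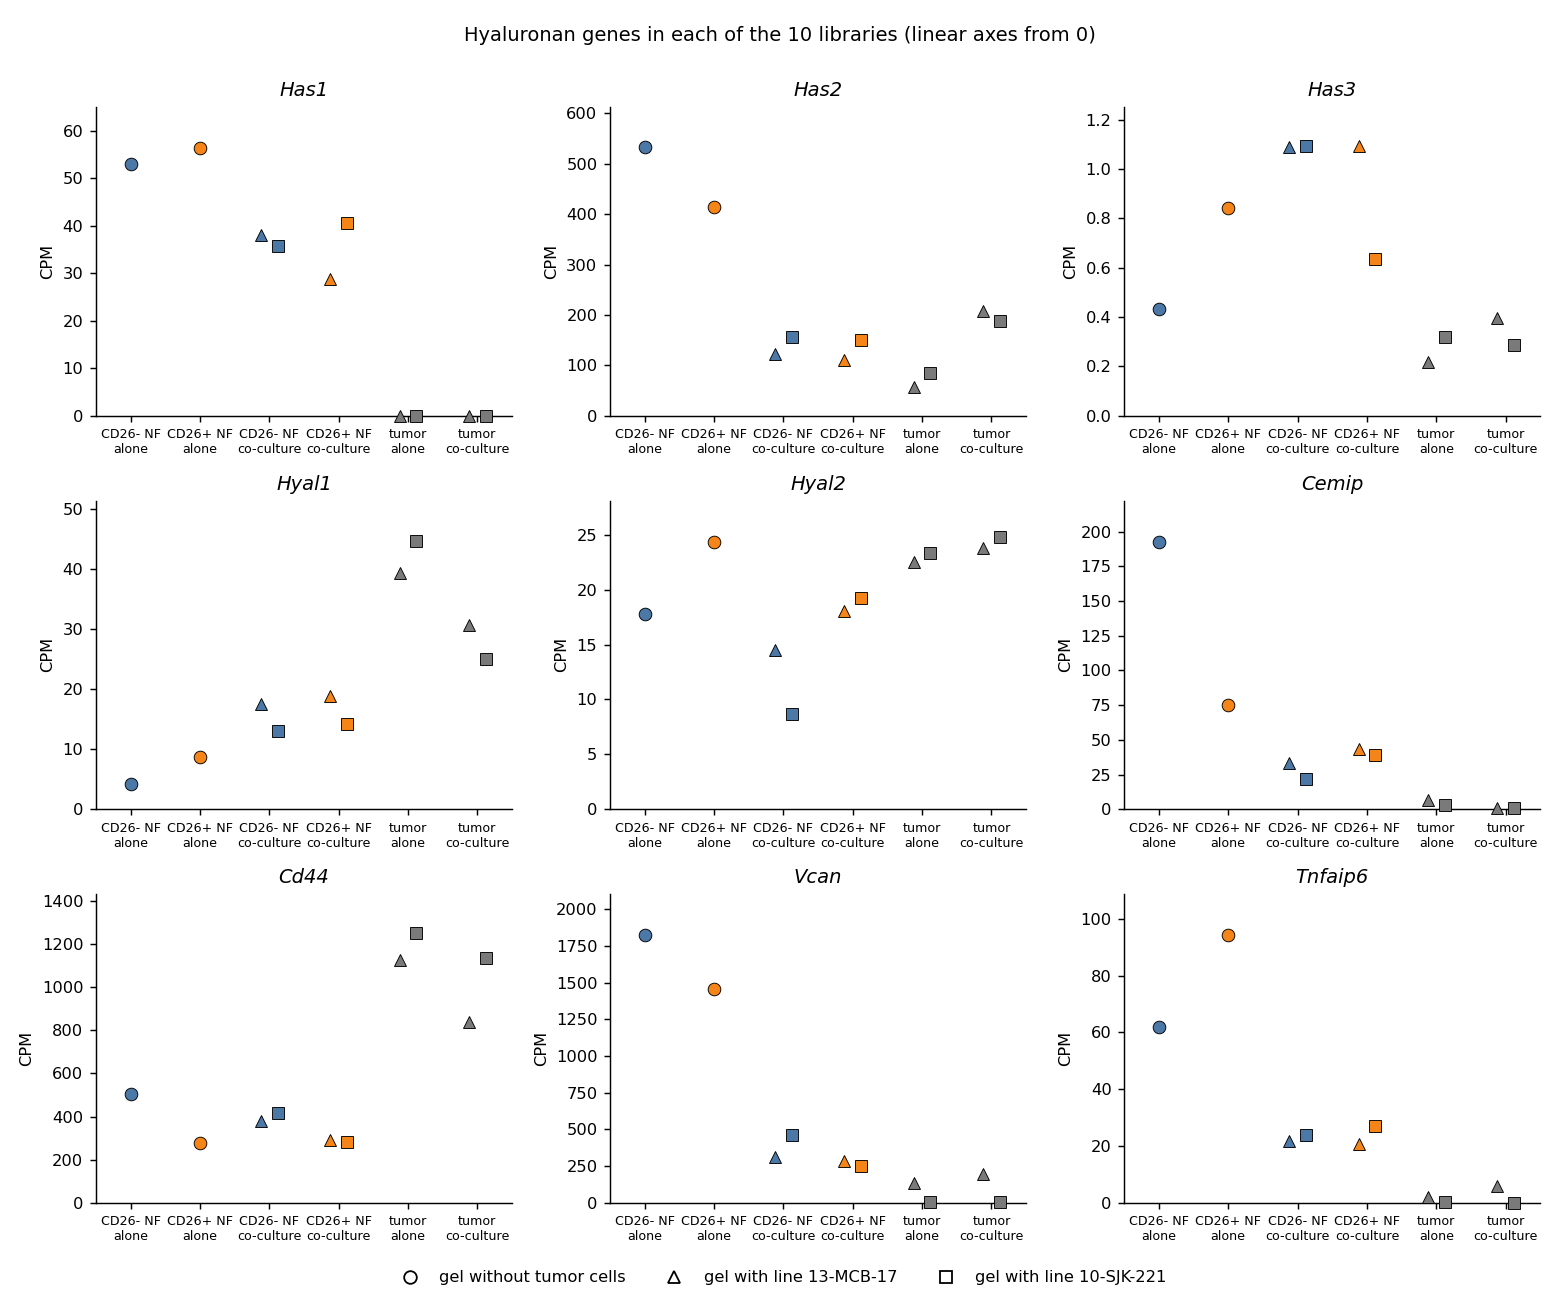
CPM of the 9 hyaluronan genes, 1 panel per gene with its own linear axis from 0. Each point is 1 library, and its shape gives the tumor line in the gel: Vcan was at 1821 and 1458 CPM in NFs alone and between 248 and 462 CPM in co-cultured NFs, and Cd44 was highest in tumor cells.

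Co-cultured NFs were compared with NFs alone to ask what tumor cells in the same gel do to these genes in fibroblasts. Of the 9 genes, 5 fell (Has1, Has2, Cemip, Vcan and Tnfaip6), 1 rose (Hyal1) and 3 did not pass the test (Has3, Hyal2 and Cd44). Over all 15013 genes tested, 48.8% passed in this comparison, 25.9% higher and 22.9% lower. The median log2 fold change was -0.56 over the 9 genes and 0.02 over all genes. The 6 calls stood under every other scaling, filter and tool tried on the same threshold, and without gel 4 or gel 5.

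Has2, the synthase with the highest level here, was at 533 CPM in the CD26- and 414 CPM in the CD26+ library of gel 1. With tumor cells, the CD26- libraries of gels 4 and 5 held 123 and 157 CPM and the CD26+ libraries 110.5 and 151 CPM. All 4 co-cultured NF libraries lay below both libraries of NFs alone, and the groups did not overlap. How many of all genes were apart in this way was not counted, here or for the genes below. The log2 fold change was -1.75 (SE 0.17, adjusted p = 3.93e-05), which is 0.298 of the level in NFs alone. Has1 was at 53.0 and 56.3 CPM in CD26- and CD26+ NFs alone, at 38.1 and 35.8 CPM in the CD26- libraries of gels 4 and 5, and at 28.9 and 40.5 CPM in the CD26+ libraries of the same gels. The groups were again apart, but the fall was smaller than that of Has2, with a log2 fold change of -0.56 (SE 0.16, adjusted p = 0.0155). Has3 was read by only 7 to 19 counts in each NF library, and its log2 fold change of 0.68 (SE 0.54, adjusted p = 0.327) was close to its error.

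Set per kilobase of exon, which allows the 3 synthases to be compared with each other, Has2 made up most of the synthase level in every library. Its share of the summed synthase level was 91.4% and 88.6% in CD26- and CD26+ NFs alone and 77.1% to 82.1% in co-cultured NFs. The share of Has1 was 8.53% and 11.3% in NFs alone and 17.6% to 22.5% in co-cultured NFs, and the groups did not overlap. Has3 made up 0.524% at most in any library. The summed synthase level was 138 and 110.2 CPM per kb in NFs alone and 32.6 to 45.1 CPM per kb in co-cultured NFs. In tumor cells it was 13.5 and 20.01 CPM per kb alone and 49.1 and 44.2 CPM per kb in co-culture, of which Has2 made up at least 99.7%.

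**Figure D2:**
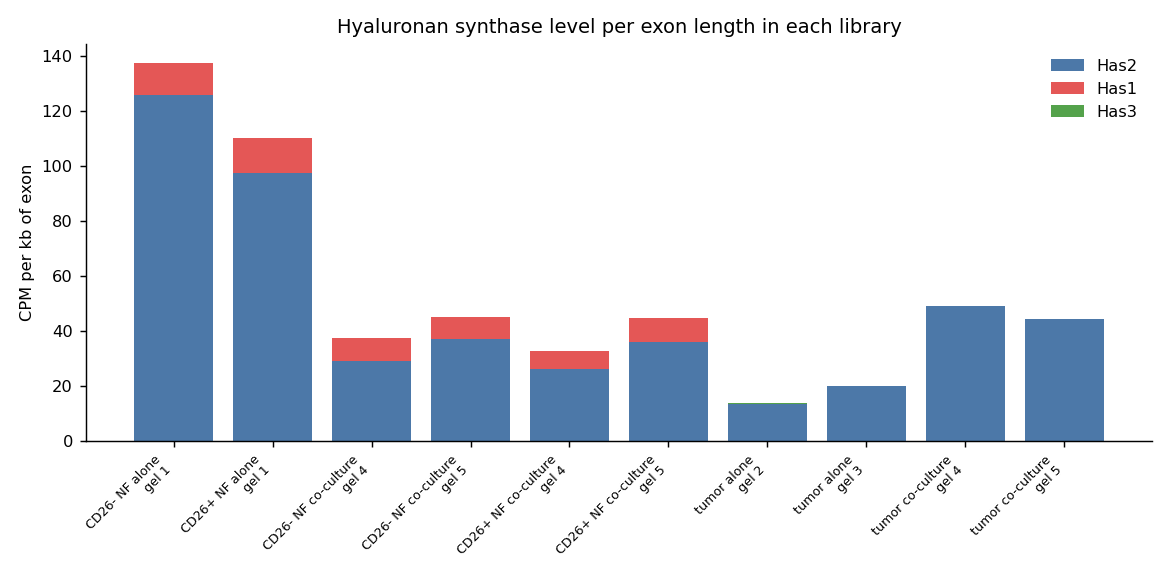
Summed level of Has1, Has2 and Has3 in CPM per kilobase of merged exon, 1 bar per library, stacked by gene from 0. NFs alone stand at 138 and 110.2 CPM per kb, co-cultured NFs at 32.6 to 45.1, tumor cells alone at 13.5 and 20.01 and co-cultured tumor cells at 49.1 and 44.2.

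Among the breakdown genes, Cemip and Hyal1 went opposite ways in NFs. Cemip was at 193 CPM in CD26- and 75.0 CPM in CD26+ NFs alone, at 33.6 and 21.6 CPM in the CD26- libraries of gels 4 and 5, and at 43.4 and 38.7 CPM in the CD26+ libraries of the same gels. All co-cultured libraries lay below those of NFs alone (log2 fold change -1.90, SE 0.35, adjusted p = 0.00166). Hyal1 was at 4.22 and 8.70 CPM in CD26- and CD26+ NFs alone, at 17.6 and 13.0 CPM in the CD26- libraries of gels 4 and 5 and at 18.9 and 14.3 CPM in the CD26+ libraries. Every co-cultured library was above both libraries of NFs alone (log2 fold change 1.40, SE 0.26, adjusted p = 0.00188). In the annotation, 51.9% of the exon length of Hyal1 is shared with Naa80 and Hyal3 on the same strand, so its counts are uncertain. At the tumor RNA share above, RNA of tumor cells would supply 3.37% to 8.63% of the Hyal1 level in co-cultured NFs. Hyal2 was at 17.8 and 24.4 CPM in NFs alone and between 8.63 and 19.2 CPM in co-cultured NFs. These ranges overlapped, and the test was not passed (log2 fold change -0.46, SE 0.20, adjusted p = 0.0781).

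The receptor gene Cd44 was at 506 and 276 CPM in CD26- and CD26+ NFs alone and between 282 and 417 CPM in co-cultured NFs. All co-cultured libraries lay between the libraries of NFs alone, and the log2 fold change was -0.10 (SE 0.14, adjusted p = 0.586). Tumor RNA at the share above would supply 4.28% and 5.88% of the Cd44 level in CD26- NFs of gels 4 and 5 and 8.79% and 19.8% in CD26+ NFs.

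The genes of the binding proteins fell together with Has2. Vcan was at 1821 and 1458 CPM in CD26- and CD26+ NFs alone, at 311 and 462 CPM in the CD26- libraries of gels 4 and 5, and at 286 and 248 CPM in the CD26+ libraries. The log2 fold change of -2.29 (SE 0.18, adjusted p = 1.11e-05) was the largest in size among the 9 genes in this comparison, and co-cultured NFs held 0.204 of the level in NFs alone. Tnfaip6 was at 61.8 and 94.1 CPM in CD26- and CD26+ NFs alone, at 21.6 and 23.9 CPM in the CD26- libraries of gels 4 and 5, and at 20.6 and 26.9 CPM in the CD26+ libraries. Its groups did not overlap either (log2 fold change -1.67, SE 0.17, adjusted p = 5.04e-05). Tumor RNA at the share above would supply at most 2.12% of the Vcan level and 0.872% of the Tnfaip6 level in any co-cultured NF library. The 8 fibroblast markers went both ways in the same test, with 4 lower, 2 higher and 2 not past the threshold (median log2 fold change -0.45), while their sum, in which collagen genes weigh most, was lower in co-cultured NFs. Their part in these results was not tested.

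Per kilobase of exon, Vcan and Has2 stood at the top in NFs alone, at 113 ± 17.8 and 112 ± 19.9 CPM per kb (SD, n = 2, 1 library of each subset), and did not differ beyond their spread. Cd44, at 74.6 and 40.7 CPM per kb in CD26- and CD26+ NFs, and Tnfaip6, at 36.1 and 55.0, followed. Cd44 was above Tnfaip6 in CD26- NFs and below it in CD26+ NFs. Then came Has1 at 12.1 ± 0.510 and Cemip at 10.9 ± 6.80. In co-cultured NFs (n = 4) Cd44 led at 50.5 ± 9.85 CPM per kb, above Has2 at 31.9 ± 5.28 and Vcan at 22.6 ± 6.51, and the ranges of Has2 and Vcan overlapped. The order at the top differed between the cultures, with Vcan and Has2 first in NFs alone and Cd44 first in co-cultured NFs.

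Within each subset the same direction was found for the genes that passed. Each of these tests sets 2 co-cultured libraries against 1 library of NFs alone, which has no replicate and is assumed to vary like the other groups. In CD26- NFs 5 of 9 genes passed the test of co-culture against alone (30.8% of all 16231 genes, 16.6% higher and 14.1% lower), with Has2, Cemip, Vcan and Tnfaip6 lower and Hyal1 higher. In CD26+ NFs 6 of 9 passed (34.2% of all genes, 19.0% higher and 15.2% lower), with Has1 as the additional gene. Has1 had a log2 fold change of -0.46 (adjusted p = 0.152) in CD26- NFs and -0.66 (adjusted p = 0.0423) in CD26+ NFs, and the test of the difference between these gave -0.20 (SE 0.33, adjusted p = 0.982). Without the CD26+ library of gel 4, 3 of the 6 calls in CD26+ NFs remained, and Has1 (adjusted p = 0.126), Hyal1 (0.137) and Cemip (0.107) no longer passed. Has1 also did not pass with DESeq2 or without a filter (0.0793 in both) or after the estimated tumor RNA was taken off (0.0963), nor did Hyal1 with DESeq2 (0.0648) or without a filter (0.0517). Over the alternatives the adjusted p ranged from 0.0209 to 0.126 for Has1, from 0.0221 to 0.137 for Hyal1 and from 0.0117 to 0.107 for Cemip. Without the CD26+ library of gel 5, Cemip did not pass either (0.0950), and without the CD26- library of gel 4 or gel 5, which enter through the shared spread, Has1 did not pass (0.0774 and 0.0741).

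The interaction of subset and culture asked whether the subsets differed in their response. The level alone is 1 library in each subset, so a departure of either gel 1 library and a difference in response cannot be told apart. It passed for 1 of the 9 genes, Cemip, where 0.376% of all genes passed, 0.228% higher and 0.148% lower. Cemip in co-culture was 0.174 and 0.112 of the gel 1 level in CD26- NFs and 0.578 and 0.517 of it in CD26+ NFs, for gels 4 and 5 in that order. The log2 fold change was -2.75 (SE 0.23, adjusted p = 9.56e-07) in CD26- NFs and -0.83 (SE 0.23, adjusted p = 0.0144) in CD26+ NFs, and their difference was 1.92 (SE 0.34, adjusted p = 0.0292). So the CD26+ level was 0.389 of the CD26- level in gel 1 and 1.29 and 1.80 times it in gels 4 and 5. This call rests on few libraries: the adjusted p was 0.637 without the CD26+ library of gel 4, 0.409 without that of gel 5 and 0.124 without the CD26- library of gel 5, with differences of 1.84, 1.93 and 1.66. It was also 0.0506 with a filter of 1 CPM, 0.121 without a filter and 0.0626 after the estimated tumor RNA was taken off, in a range over all alternatives of 1.96e-07 to 0.637.

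The NF subsets were set against each other over gels 1, 4 and 5. Cd44 was lower in CD26+ NFs, and the other 8 genes did not pass the test, where 7.53% of all genes passed, 3.93% higher and 3.60% lower. The CD26+ level of Cd44 was 0.545, 0.765 and 0.675 of the CD26- level in gels 1, 4 and 5, lower in 3 of 3 gels (log2 fold change -0.77, SE 0.14, adjusted p = 0.0132). Without gel 5 the log2 fold change was -0.76 with an adjusted p of 0.203, in a range over the alternatives of 5.02e-06 to 0.203. Vcan was also at a lower level in CD26+ NFs of all 3 gels, at 0.801, 0.917 and 0.536 of the CD26- level, and did not pass (log2 fold change -0.63, SE 0.18, adjusted p = 0.0660). With DESeq2 Vcan passed (adjusted p = 0.0155, in a range of 0.0155 to 0.523). Hyal2 was at 1.37, 1.25 and 2.23 times the CD26- level (log2 fold change 0.46, SE 0.19, adjusted p = 0.166).

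**Figure D3:**
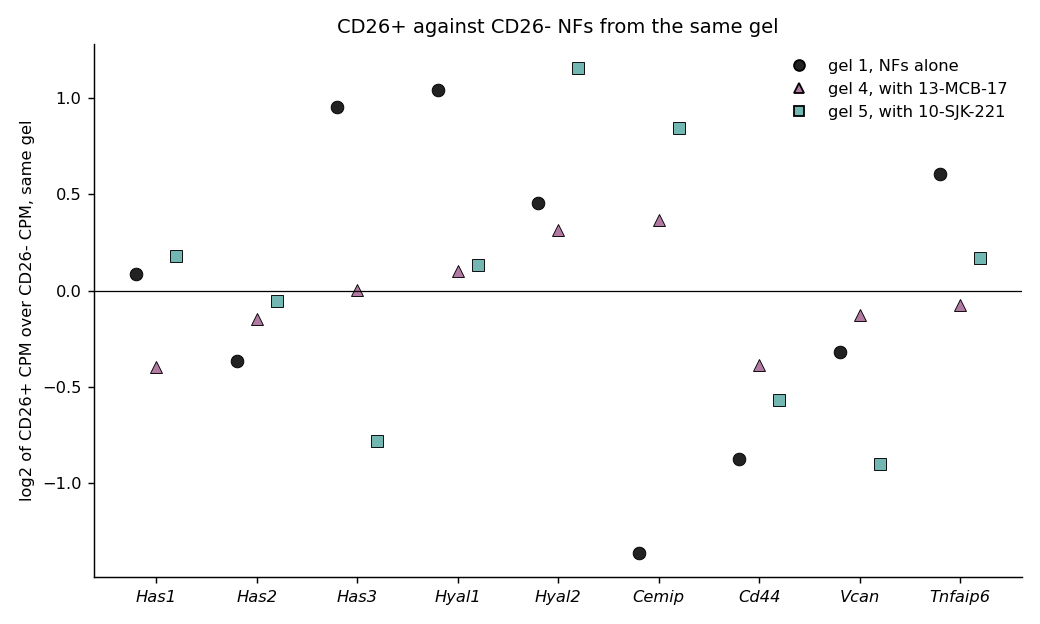
Log2 of the CPM in CD26+ NFs over the CPM in CD26- NFs of the same gel, for each hyaluronan gene, with 1 point per gel. Cd44 lies below 0 in all 3 gels, Hyal2 above 0 in all 3, and Cemip lies below 0 in gel 1 and above 0 in gels 4 and 5.

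Within co-culture alone, Cd44 was again the 1 gene of 9 past the threshold (6.01% of all genes, 3.48% higher and 2.53% lower), with a log2 fold change of -0.65 (SE 0.17, adjusted p = 0.0415). It passed with all 4 co-cultured NF libraries, though not without a filter on low counts (adjusted p = 0.0653). With 1 of them left out it did not pass: the adjusted p was 0.150 and 0.528 without the CD26- library of gel 4 or 5 and 0.186 and 0.193 without the CD26+ library of gel 4 or 5, in a range over the alternatives of 0.00245 to 0.528. The gel is shared by the subsets, and with the gel as a block 3 genes passed, beside 16.7% of all genes (8.71% higher and 7.99% lower): Cd44, Vcan (log2 fold change -0.68, adjusted p = 0.00135, against -0.72 and 0.0713 without the block) and Hyal2 (0.56, adjusted p = 0.0293, against 0.53 and 0.219). Vcan also passed with DESeq2 (0.0213). Over the alternatives the adjusted p ranged from 0.00135 to 0.812 for Vcan and from 0.0293 to 0.920 for Hyal2. The tumor RNA share was higher in the CD26+ than in the CD26- library of each gel, and Cd44 was at 839 and 1134 CPM in the tumor cells of gels 4 and 5. Tumor RNA would thus raise Cd44 more in the CD26+ libraries. The call of Cd44 stood after the estimated tumor RNA was taken off. Of the 8 fibroblast markers, 4 were also lower in the CD26+ libraries and 0 higher (median log2 fold change -0.61), and their sum was 37998 and 41536 CPM in the CD26- and 23317 and 29343 CPM in the CD26+ libraries. Over 3 gels 2 of the 8 were lower (median -0.45). Their part in the lower Cd44 was not tested.

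The tumor cells of both lines were asked how their own hyaluronan genes stood beside NFs. Of the 7 genes tested, 2 rose (Has2 and Vcan), 2 fell (Hyal1 and Cemip) and 3 did not pass (Hyal2, Cd44 and Tnfaip6), where 22.3% of all 13197 genes passed, 10.8% higher and 11.5% lower. Has1 had 0 counts in all 4 tumor libraries and Has3 had 4 to 7, and the filter on low counts removed both. In the same test 4 of 8 epithelial markers fell and 0 rose (median log2 fold change -0.52), and 5 of the 6 fibroblast markers tested rose and 0 fell (median 4.11). The part of these markers was not tested.

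Has2 rose from 57.0 to 208 CPM in 13-MCB-17 and from 84.6 to 187 CPM in 10-SJK-221. Both co-cultured libraries were above both libraries of cells alone, and the folds were 3.65 and 2.21 (log2 fold change 1.48, SE 0.16, adjusted p = 0.000559). NF RNA at the share above would supply at most 0.324% and 0.248% of the co-cultured level. Fitted on 10-SJK-221 alone, by leaving out either 13-MCB-17 tumor library in the fit of all libraries, the log2 fold change was 1.14 and the adjusted p 0.0629 or 0.0689, in a range over the alternatives of 5.38e-33 to 0.0689.

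Cemip fell from 6.68 to 0.622 CPM in 13-MCB-17 and from 3.24 to 0.856 CPM in 10-SJK-221, that is from 123 to 11 and from 51 to 15 counts (log2 fold change -2.70, SE 0.43, adjusted p = 0.00306). At the NF RNA share above, which is an upper limit, NFs would supply at most 35.8% and 10.6% of what was left. Hyal1 was at 39.4 and 44.8 CPM alone and at 30.7 and 25.0 CPM in co-culture, lower in both lines (log2 fold change -0.62, SE 0.14, adjusted p = 0.0153). Cd44 was at 1125 and 1254 CPM alone and at 839 and 1134 CPM in co-culture, in overlapping ranges (log2 fold change -0.31, SE 0.14, adjusted p = 0.141).

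Vcan was at 137 CPM alone and 199 CPM in co-culture in 13-MCB-17, and at 3.24 and 5.08 CPM in 10-SJK-221. In co-culture it was 1.45 and 1.56 times its level alone (log2 fold change 0.54, SE 0.12, adjusted p = 0.0124), far less than the difference between the lines. NF RNA at the share above would supply at most 0.870% of the co-cultured Vcan level in 13-MCB-17 and at most 21.1% of it in 10-SJK-221. Hyal1 and Vcan no longer passed with DESeq2 (adjusted p = 0.0584 and 0.0734), in the fit of all 10 libraries (0.0624 and 0.171) or without any 1 tumor library (0.211 to 0.591 and 0.479 to 0.698). Their adjusted p over the alternatives ranged from 7.70e-05 to 0.591 and from 0.00117 to 0.698. Tnfaip6 rose from 37 to 104 counts in 13-MCB-17 and was at 3 and 1 counts in 10-SJK-221 (log2 fold change 1.21, SE 0.52, adjusted p = 0.135). Without the 10-SJK-221 library alone or in co-culture it passed (log2 fold change 1.503, adjusted p = 0.0234 and 0.0253), as it did without a filter on low counts (0.0338), and without either 13-MCB-17 library it did not (0.852), in a range of 0.0234 to 0.877.

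Between the tumor lines, 2 of the 7 genes tested differed, Vcan and Tnfaip6, both lower in 10-SJK-221 (14.5% of all genes passed, 5.93% higher and 8.54% lower). Vcan was at 137 and 199 CPM in 13-MCB-17 and at 3.24 and 5.08 CPM in 10-SJK-221 (log2 fold change -5.41, SE 0.13, adjusted p = 4.03e-07). Tnfaip6 was at 2.01 and 5.88 CPM in 13-MCB-17 and at 0.191 and 0.0570 CPM, at or under the floor, in 10-SJK-221 (log2 fold change -4.97, SE 0.64, adjusted p = 0.00178). Has2, Hyal1, Hyal2, Cemip and Cd44 did not pass, with log2 fold changes between -0.67 and 0.22. NFs beside 10-SJK-221 and NFs beside 13-MCB-17 differed in none of the 9 genes by edgeR, where 0 of all 15013 genes passed. At an unadjusted p under 0.05 there were 1 of the 9 (Has2, log2 fold change 0.46, SE 0.15, adjusted p = 0.656) and 947 of all genes, and DESeq2 called 0 of the 9 and 20 of all.

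**Figure D4:**
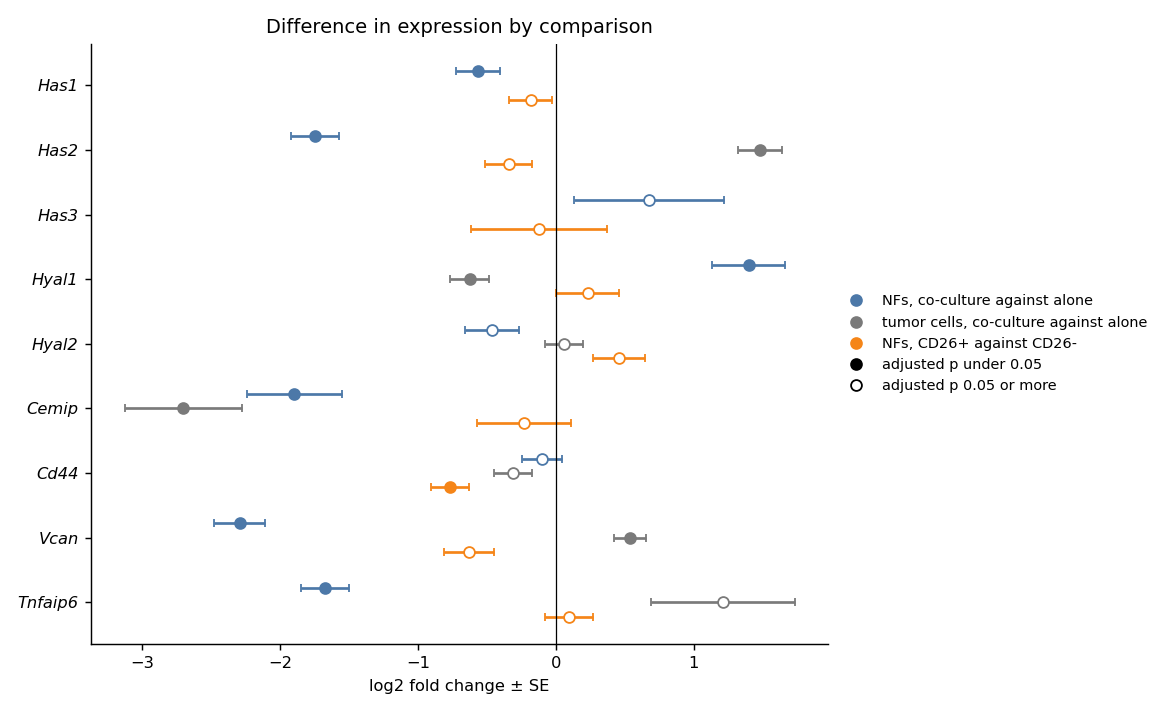
Log2 fold change of each hyaluronan gene with its standard error in 3 comparisons, NFs in co-culture against alone, tumor cells in co-culture against alone, and CD26+ against CD26- NFs over 3 gels. Filled points have an adjusted p under 0.05, and Has2 stands at -1.75 in NFs and 1.48 in tumor cells.

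The responses of NFs and tumor cells to co-culture were compared directly. The responses differed in 4 of the 8 genes with an estimate, where 30.8% of all genes passed, 16.9% higher and 13.8% lower. The NF response of Has2 was 3.23 lower on the log2 scale than that of tumor cells (SE 0.29, adjusted p = 1.04e-05), since Has2 fell in NFs and rose in tumor cells. Hyal1 differed in the opposite sense, by 2.06 (SE 0.28, adjusted p = 0.000176). Vcan differed by -2.84 (SE 0.29, adjusted p = 2.15e-05) and Tnfaip6 by -2.97 (SE 0.44, adjusted p = 0.000348). In a fit of the 6 groups without the tumor line, Vcan (0.372) and Tnfaip6 (0.179) did not pass, in ranges of 8.02e-18 to 0.372 and 4.75e-06 to 1.00. Without either 13-MCB-17 tumor library, Tnfaip6 had a difference of -0.06 and did not pass. Cemip fell in both cell types, and the difference of its responses was 0.93 (SE 0.43, adjusted p = 0.128). It passed without either 10-SJK-221 tumor library (1.65, adjusted p = 0.0315 and 0.0330, in a range of 0.0315 to 0.979).

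NFs were also set against tumor cells. Alone, 7 of 9 genes differed, 5 higher in NFs and 2 lower (61.9% of all 17048 genes passed, 32.3% higher and 29.6% lower). Has1 had 0 counts in all tumor libraries, so its level in NFs was at least 309-fold higher alone and at least 210-fold higher in co-culture, against a floor of 3 counts per library. Has2 was higher in NFs alone by 2.88 on the log2 scale (SE 0.24, adjusted p = 4.96e-07), Cemip by 4.78 (SE 0.26), Vcan by 6.39 (SE 0.26) and Tnfaip6 by 7.70 (SE 0.36). Without the tumor line as a term, Vcan had a log2 fold change of 4.64 and did not pass (adjusted p = 0.0522, in a range over the alternatives of 3.08e-158 to 0.0522). Tnfaip6 was at the floor of 3 counts in 10-SJK-221 alone, and its log2 fold change ranged from 5.49 to 8.60 over the alternatives. Hyal1 and Cd44 were lower in NFs, with log2 fold changes of -2.66 (SE 0.22, adjusted p = 4.59e-07) and -1.54 (SE 0.16, adjusted p = 5.01e-06).

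In co-culture the difference in Has2 was gone from the calls, since NFs were at 110.5 to 157 CPM and tumor cells at 187 and 208 CPM (log2 fold change -0.35, SE 0.19, adjusted p = 0.129). Has1 was among the genes called higher in NFs, as above, and Has3 was also called higher (1.69, SE 0.56, adjusted p = 0.0219) from 9 to 19 counts in NFs and 5 and 7 in tumor cells. In all, 8 of 9 genes passed, 5 higher and 3 lower (59.5% of all genes, 32.4% higher and 27.1% lower). Hyal1 (-0.60, adjusted p = 0.00815), Hyal2 (-0.53, adjusted p = 0.0230) and Cd44 (-1.33, adjusted p = 3.26e-06) were lower in NFs. Cemip (5.71), Vcan (3.55) and Tnfaip6 (4.73) remained higher in NFs, with adjusted p of 1.40e-08, 3.64e-08 and 7.47e-08 in the fit with the tumor line as a term. In 10-SJK-221 Tnfaip6 was at 1 count in co-culture, under the floor. NF RNA at the share above, an upper limit, would supply up to 134% of it. The log2 fold change of Tnfaip6 ranged from 3.15 to 6.98 over the alternatives. With the gel as a block Vcan had a log2 fold change of 2.51 and an adjusted p of 0.102, and without the tumor line 1.84 and 0.310, in a range of 2.79e-68 to 0.310. Leaving out either co-cultured tumor library ended the calls of Has3 (adjusted p = 0.134 and 0.413) and Hyal2 (0.181 and 0.222), and leaving out that of 13-MCB-17 also ended that of Hyal1 (0.331). The call of Has3 also ended without the CD26- library of gel 4 or gel 5 (0.0520 and 0.0594), and that of Hyal2 without the CD26+ library of gel 4 (0.0941) or either NF library of gel 5 (0.0602 for CD26- and 0.0643 for CD26+). With DESeq2 neither Has3 (0.0945) nor Hyal2 (0.0991) passed. Over the alternatives the adjusted p ranged from 0.0135 to 0.413 for Has3, from 0.00388 to 0.222 for Hyal2 and from 0.00661 to 0.331 for Hyal1.

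Other genes of the pathway were counted by list in co-cultured NFs against NFs alone. Of 44 such genes, 31 could be tested, and 15 rose, 10 fell and 6 did not pass, beside 25.9% of all genes higher and 22.9% lower. Among the 7 genes that supply the sugar building blocks, 4 rose and 1 fell, and the largest were Pgm3 (log2 fold change 0.89, SE 0.14), Gnpnat1 (0.86, SE 0.13) and Ugp2 (0.86, SE 0.12). Ugdh, which makes the glucuronic acid precursor, was not among the 4 largest and fell (chosen after its value was seen), from 273 and 255 CPM in NFs alone to between 158 and 199 CPM (log2 fold change -0.52, SE 0.16, adjusted p = 0.0208). Among the other breakdown genes 4 of 8 were tested, and 1 rose (Hyal3) and 1 fell (Gusb).

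The proteases that cut versican went both ways. Of 5 tested, 4 fell and 1 rose. Adamts5 was at 510 and 454 CPM in CD26- and CD26+ NFs alone and between 8.81 and 26.7 CPM in co-cultured NFs (log2 fold change -5.04, SE 0.28, adjusted p = 1.25e-06). Adamts15 (-5.18, SE 0.38) and Adamts9 (-2.41, SE 0.14) fell likewise. Adamts4 rose from 172 and 180 CPM to between 1171 and 1728 CPM (log2 fold change 3.02, SE 0.18, adjusted p = 1.71e-06), and no library overlapped.

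Among genes that work beside TSG-6, Ptx3, which is built into hyaluronan matrix, was at 383 and 513 CPM in NFs alone and between 13.5 and 68.6 CPM in co-cultured NFs (log2 fold change -3.68, SE 0.30, adjusted p = 1.28e-05). Itih5 rose from 1.24 and 2.04 CPM to between 43.3 and 99.4 CPM (log2 fold change 5.46, SE 0.35, adjusted p = 2.96e-06). Of 7 genes on that list 4 were tested, 2 rose and 2 fell, and Ambp, which encodes the light chain of inter-alpha-inhibitor, had 0 counts in every library. Of the other receptors Layn (1.04, SE 0.14), Stab1 (3.41, SE 0.34) and Lyve1 (3.51, SE 0.79) rose and Hmmr fell (-1.27, SE 0.27). Lyve1 and Stab1 are known from endothelial cells and macrophages. Stab1 was also abundant in the tumor cells, at 106.9 and 71.1 CPM in gels 4 and 5, against 17.5 to 35.7 CPM in the NFs of those gels, while Lyve1 was at or under the floor in all 4 tumor libraries. The fibroblasts had been sorted from the glands as cells without CD31 and CD45, which mark endothelial cells and leukocytes. The summed endothelial markers were 1.12 and 4.91 CPM in gel 1 and 8.00 to 22.9 CPM in the NFs of gels 4 and 5, and the leukocyte markers 5.46 and 10.0 and 31.3 to 62.4 CPM, with Ptprc at 0.0575 CPM or less in co-cultured NFs. The same leukocyte markers summed to 301 and 101 CPM in tumor cells alone and to 92.2 and 47.9 CPM in co-cultured tumor cells. The part of these markers and of tumor RNA was not tested.

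Ezr and Msn, which link CD44 to the actin cytoskeleton, rose in co-cultured NFs (2.06, SE 0.16, and 1.65, SE 0.16), and Mmp14, a protease that sheds CD44, fell (-0.90, SE 0.18). Ezr is abundant in the tumor cells, at 421 and 521 CPM in gels 4 and 5, against 12.4 and 32.4 CPM in the NFs of gel 1 and 44.4 to 130.3 CPM in those of gels 4 and 5. Among link proteins Hapln4 rose (2.59, SE 0.18) and Hapln3 rose (2.10), and 3 of the 7 genes on that list were tested.

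**Figure D5:**
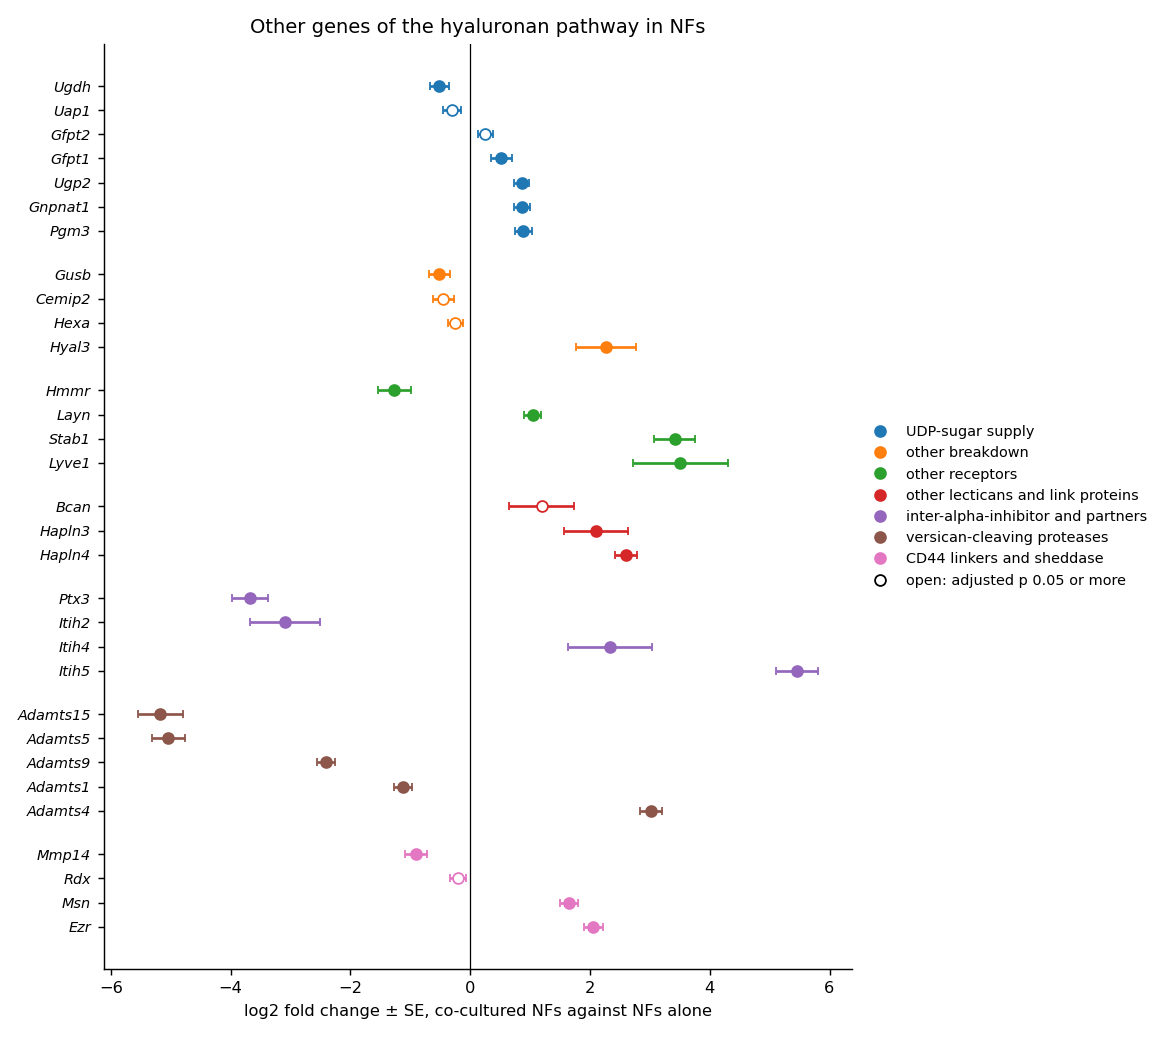
Log2 fold change with its standard error of the 31 tested pathway genes outside the group of 9, in co-cultured NFs against NFs alone, colored by list. Filled points have an adjusted p under 0.05: Adamts5 and Adamts15 lie below -5, Adamts4 at 3.02 and Itih5 at 5.46.

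CD26+ NFs differed from CD26- NFs over 3 gels in 2 of the 31 pathway genes tested, Hapln4 (1.11) and Ezr (1.12), both higher, beside 7.53% of all genes. Within co-culture 5 of 31 were higher and 1 lower, beside 3.48% and 2.53% of all genes, with Adamts15 (2.01), Ptx3 (1.16), Hapln4 (1.08), Ezr (1.05) and Adamts5 (0.93) higher and Itih5 (-1.004) lower in CD26+ NFs. The interaction of subset and culture passed for 0 of 31 (0.376% of all genes) by edgeR, with 3 at an unadjusted p under 0.05 (7.79% of all genes), and for 1 by DESeq2 (0.604% of all genes). In tumor cells 6 of 24 rose and 2 fell in co-culture, beside 10.8% and 11.5% of all genes, among them Adamts4 (1.55), Adamts5 (1.30) and Hapln4 (1.26), which rose, and Hmmr (-1.01), which fell. Set against tumor cells grown alone, NFs were higher in 18 and lower in 9 of 31, beside 32.3% and 29.6% of all genes. Hexa, a lysosomal hexosaminidase, was at 295 to 382 CPM in all NF libraries and at 0.170 CPM or less in all tumor libraries, and Gfpt2 at 126 to 163 CPM and at 0.510 CPM or less.

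The genes whose pattern over the 10 libraries was closest to each of the 9 were found by the root mean square difference of centred log2(CPM + 1) values, among genes with a mean of at least 10 CPM. Tshz3 lay closest to Has1 (0.14, where Has1 itself varied by 2.65), Casc4 to Has2 (0.29 of 0.92) and Plpp3 to Cemip (0.56 of 2.21). Cbx5 lay closest to Cd44 (0.15 of 0.84), Dapk1 to Vcan (0.72 of 2.77) and Arhgap28 to Tnfaip6 (0.45 of 2.16). Hpcal1 lay closest to Hyal1 (0.19 of 0.91), Ptges2 to Hyal2 (0.12 of 0.42) and Ric8a to Has3 (0.12 of 0.30). The 10 libraries share the split into NFs and tumor cells, and likeness over them includes that split. Has3 was at 0.217 to 1.09 CPM, where the added 1 flattens its pattern, so genes that vary little lie close to it.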

How the data were processed

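Libraries of stranded mRNA were made from sorted cells per the labels. The authors deposited raw read counts per gene in 1 table, without normalization. The submitters' processing notes name HISAT2 2.2.1 and GRCm38. How reads were counted, whether by strand and on which annotation, was not given in the sources used here, so overlapping genes have uncertain counts. Of 55486 gene IDs, 55226 were in GENCODE M21 (GRCm38), from which exon lengths came. A row without an ID held 0 counts (0% of the total) and was left out.

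CPM were computed over library totals of 14142334 to 18408940. Differences were tested with the quasi-likelihood F test of edgeR 4.0.16 (R 4.3.3, TMM scaling, filterByExpr), adjusted by Benjamini-Hochberg over all genes tested, with a threshold of 0.05. NF comparisons were fitted on 6 libraries, with terms for culture and subset or as 4 groups. Tumor comparisons used 4 libraries with line and culture, and NFs against tumor cells all 10, with line as a term. A fit between groups all at 0 (Has1 in tumor cells) was taken as no estimate. Alternatives were RLE scaling, DESeq2 1.42.0, no filter or 1 CPM in 2 libraries, an additional absolute log2 fold change above 2, the gel as a block, all 10 libraries in the tumor fits, no line term, leaving out libraries and taking off the estimated RNA of the other cell type. The gel number marks a shared gel per the labels and thus pairs NF subsets. Across 15013 genes, the differences between gels 5 and 4 in both subsets had Pearson's r = 0.155. No pair of libraries of 1 group was near-identical (chi-square per degree of freedom 18.5 to 61.1). The edgeR fits were also run on simulated counts of independent libraries without gel or line effects. That run cannot speak to the confounding of gels, and its outcome is not used here.

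The 9 genes were given as a group, and the group and pathway lists were chosen with earlier results of these data known. Pathway genes were named where past the threshold with a mean of at least 1 CPM, at most the 4 largest per list and comparison. Exceptions are marked as such. One gene of the pathway lists is not reported here and was left out of their counts. The tumor markers, Dpp4, Ambp and genes named for their level were named for description.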

Additional observations from a re-analysis of the deposited data

Results flagged for a closer look

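Results listed here are differences between the effects of 1 contrast in 2 cell types, subsets or lines. No group had 4 or more libraries, so no library was tested for standing apart from its group.

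The culture response of Cemip differed between the NF subsets by 1.92 on the log2 scale in edgeR's interaction test (adjusted p = 0.0292), with CD26+ NFs at 0.578 and 0.517 and CD26- NFs at 0.174 and 0.112 of their level alone. The Cemip call ended in 6 of 10 alternatives. Between NFs and tumor cells the culture response differed by -3.23 for Has2, by 2.06 for Hyal1, by -2.84 for Vcan and by -2.97 for Tnfaip6, each with an adjusted p under 0.001 in edgeR's test of the difference. Without the tumor line as a term, Vcan and Tnfaip6 did not pass. With either 13-MCB-17 tumor library left out, the difference of Tnfaip6 was -0.06. Has3 had a log2 difference in CPM of 0.87 in 13-MCB-17 (4 counts alone and 7 in co-culture) and of -0.16 in 10-SJK-221, where it had 5 counts in both libraries and only the library totals differed. The signs are opposite, but these counts show no opposite movement, and the difference was not tested.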

How the results depend on the processing

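Over all settings but the additional fold change threshold, which was counted by comparison only, single-gene log2 fold changes kept direction and side of the threshold in 926 cases. They lost the threshold in 56, gained it in 9 and reversed in 38, all of the last in genes that had not passed. Calls lost with a left-out library are given with the results, and the cause was not tested. The library left out leaves few degrees of freedom, and a lone library is assumed to vary like the other groups. The gel as a replicate block raised the calls within co-culture from 1 to 3 (CD26+ against CD26- NFs), and those over all genes from 6.01% to 16.7%, ended the call of Vcan for NFs against tumor cells (2.51) and changed no other call. Has1 gave no estimate where a tumor library was left out of a comparison with tumor cells in the same culture.

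Among the alternatives, the share of all genes called was computed only for DESeq2 and for the gel as a block. The other counts of calls in this paragraph thus stand without that share. An additional absolute log2 fold change above 2 left 0 calls in CD26+ against CD26- NFs over 3 gels, within co-culture and in the interaction. It left 1 in co-cultured NFs against NFs alone, 2 in CD26- and 1 in CD26+ NFs, 1 in co-cultured tumor cells and 4 in NFs against tumor cells in co-culture. DESeq2 gave 2 calls each over 3 gels (11.2% of all genes against 7.53% by edgeR), within co-culture (4.91% against 6.01%) and in co-cultured tumor cells (11.9% against 22.3%), 4 in place of 6 for culture in CD26+ NFs (24.7% against 34.2%) and 6 in place of 8 in NFs against tumor cells in co-culture (51.0% against 59.5%). Without a filter 0 were called within co-culture and in the interaction. A filter of 1 CPM and taking off the estimated RNA of the other cell type also left 0 in the interaction. The fit of all 10 libraries gave 2 in co-cultured tumor cells, and the 6 groups without the tumor line 2 for the difference of the responses. With 1 library or gel left out, the calls ranged from 0 to 1 over 3 gels, were 0 within co-culture, and ranged from 3 to 5 in CD26+ NFs, from 0 to 1 in the interaction, from 1 to 3 in co-cultured tumor cells, from 4 to 8 in NFs against tumor cells in co-culture and from 3 to 5 in the difference of the responses.

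The log2 fold changes that reversed with a library or gel left out had these ranges. For CD26+ against CD26- NFs over 3 gels they were -0.49 to 0.29 for Has3, -0.042 to 0.40 for Hyal1, -0.65 to 0.42 for Cemip and -0.11 to 0.26 for Tnfaip6. Within co-culture they were -0.24 to 0.13 for Hyal1 and -0.37 to 0.092 for Tnfaip6. In CD26+ NFs Has3 ranged from -0.36 to 0.34 with culture. In the interaction they were -0.54 to 0.026 for Has1, -0.076 to 0.48 for Has2, -0.078 to 0.58 for Hyal2 and -0.55 to 0.11 for Vcan. In tumor cells Tnfaip6 ranged from -1.61 to 1.503 with culture. Between the lines they were -0.19 to 0.49 for Has2, -0.33 to 0.11 for Hyal1, -0.021 to 0.023 for Hyal2 and -1.12 to 0.42 for Cemip. For NFs against tumor cells alone Hyal2 ranged from -0.030 to 0.013, and for the difference of the responses Has3 from -0.079 to 0.88. For NFs beside either line they were -0.95 to 0.30 for Has3, -0.61 to 0.10 for Hyal2, -1.04 to 0.26 for Cemip, -0.064 to 0.28 for Cd44 and -0.11 to 0.62 for Vcan. Other settings reversed Cd44 with culture in CD26+ NFs (-0.056 after the other cell type's RNA was taken off), Hyal2 between the lines (0.0011 in the fit of all 10 libraries) and Hyal2 in NFs against tumor cells alone (0.027 with RLE scaling, 0.028 with DESeq2, 0.029 without a filter and 0.034 with 1 CPM).

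Depth limits Has3, with 4 to 19 counts a library, and Tnfaip6 in 10-SJK-221, with 3 and 1 counts.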
